A study of Mus musculus with 24 samples.

Results

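Heat shock and chaperone genes were taken as the rows of the deposited table of normalised read counts whose symbols name an Hsp70 (Hspa), Hsp90, small heat shock (Hspb), Hsp60 (Hspd), Hsp10 (Hspe) or Hsp110 (Hsph) protein or an Hsp70-binding protein listed under the same letters, a J-domain protein (Dnaja, Dnajb, Dnajc), a subunit of the chaperonin TRiC or a close relative (Cct2 to Cct8), or heat shock factor (Hsf1, Hsf2). The rule read symbols only and found 74 of 18762 genes. A mean normalised read count of at least 10 over the mice was reached by 57 of the 74, among 12354 genes tested in all, and the other 17 are described by their values. Genes that the rule names but that have no row, such as *Hsf1*, *Cct5* and *Dnajb11*, were not analysed here.

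The RNA-seq libraries came from LSK-SLAM cells, a sorted bone marrow fraction that is strongly enriched for haematopoietic stem cells (HSCs). All mice were wild-type C57BL/6 animals without a treatment, so that the values describe a single inbred strain. By the sample labels, 5 mice were young (4 to 5 months) and 7 were old (20 to 22 months). The paper's supplement states higher ages for both groups of this RNA-seq. Each mouse gave RNA of 15000 sorted cells and 1 column of values. The comparison of the ages asks which genes differ in HSCs between young and aged bone marrow. Recovered reads per library ranged from 2.05 to 5.12 M (1 M is 1e+06 reads) in young and from 0.861 to 5.00 M in old mice. The label of every mouse also ends in the letter A or B, which the sources used here do not explain. Letter A marked 2 young and 4 old mice (median 2.12 M reads) and letter B marked 3 young and 3 old mice (median 4.53 M), and no mouse of letter A was as deep as a mouse of letter B. Depth and letter therefore coincide in these mice and were not separated beyond thinning the reads to an equal number. The letter is reported beside the age. Of the markers of the sorted fraction, *Kit* (546 to 2049 normalised read counts) and *Hlf* (332 to 1447) were abundant. *Ly6a* (35.5 to 193) and *Slamf1* (42.6 to 154), for which the gate selects, were lower. *Cd34* (69.4 to 224) and *Flt3* (14.2 to 74.3), for which it does not select, were also present. *Cd48*, which the SLAM gate removes, lay between 0.583 and 11.8.

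Chaperones bind proteins that are not yet folded or have lost their fold. Hsp70 proteins hold short stretches of a client and release them in a cycle that J-domain proteins start and nucleotide exchange factors such as Hsp110 close. Hsp90 acts later and on fewer clients, many of them kinases and receptors, and TRiC encloses actin, tubulin and other proteins in a ring. When the cytosol is stressed by heat or unfolded protein, heat shock factor 1 binds heat shock elements and raises the inducible forms within a short time, while the constitutive forms serve unstressed cells. The endoplasmic reticulum (ER) has its own set, raised through ER stress elements by the unfolded protein response. HSCs make protein slowly, and their protein quality control is a subject of work on ageing. The stress-inducible genes are therefore given beside the constitutive ones.

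The elements through which these genes are known to be induced were searched for in RefSeq promoters (GRCm38.p6, 250 bases before to 50 after a transcript start), which were found for 60 of the 74 genes. A heat shock element was written as 3 units (GAANNTTCNNGAA or TTCNNGAANNTTC, which are each other's reverse complement) or as 2 units (GAANNTTC or TTCNNGAA, each its own reverse complement, both contained in the 3-unit form). The ER stress element was written as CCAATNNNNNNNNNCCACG on both strands. Of 32851 mouse promoters, 0.603% held 3 units, 15.1% held 2 units and 0.119% held the ER element. Among the 60 genes, 4 held 3 units (*Hspd1* and *Hspe1*, which share 1 region, *Dnajb6* and *Hsph1*), 18 held 2 units, and *Hspa5* and *Hsp90b1* held the ER element. The 60 genes had 78 promoters, so that these gene counts are not on the same footing as the shares of single promoters. The inducible *Dnajb1* and *Hsp90aa1* are not among the 18, having either no match or no promoter entry. Windows of 30 bases are shown for the genes with 3 units or the ER element and for *Hspa1b*. They are on the strand of the gene, with the matching letters in capitals:
*Hspe1* and *Hspd1*, chr1:55088053-55088082, plus strand: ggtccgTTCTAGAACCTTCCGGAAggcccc
*Hsph1*, chr5:149636287-149636316, minus strand: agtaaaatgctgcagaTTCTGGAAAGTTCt
*Dnajb6*, chr5:29735843-29735872, plus strand: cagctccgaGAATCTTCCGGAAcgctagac
*Hspa1b*, chr17:34959324-34959353, minus strand: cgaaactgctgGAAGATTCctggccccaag
*Hspa5*, chr2:34772019-34772048, plus strand: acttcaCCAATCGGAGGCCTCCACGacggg
*Hsp90b1*, chr10:86705633-86705662, minus strand: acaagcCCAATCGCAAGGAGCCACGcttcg

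The first window lies within the annotated span of *Hspd1*, 89 bases before the start of *Hspe1* on the other strand, and holds overlapping 3-unit matches. In *Hsph1* the match began 36 bases after the start, in *Dnajb6* 46 bases before it, in *Hspa5* 65 bases before it, and in *Hsp90b1* 212 bases before it. *Hspa1b*, the classical inducible Hsp70, held a 2-unit match 104 bases before its start. These are letter matches and were not tested for binding.

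Per kb of exon sequence, *Hsp90ab1*, the constitutive cytosolic Hsp90, was the most abundant of the tested genes at 624 normalised read counts per kb (mean over 12 mice). *Hspa8*, the constitutive Hsp70, followed at 205, and *Cct2*, a TRiC subunit, at 96.98. The inducible partner *Hsp90aa1* reached 93.7, *Hspa9*, the mitochondrial Hsp70, 69.2, and the ER chaperones *Hspa5* (BiP) and *Hsp90b1* (Grp94) 63.9 and 62.1. The other inducible genes were lower: *Dnajb1*, the J-domain partner of inducible Hsp70, had 34.2 per kb, *Dnajb4* and *Dnaja1* 8.62 and 8.61, *Hsph1* 7.42 and *Hspb8* 5.80. The inducible Hsp70 pair was lower still, with 2.85 for *Hspa1b* and 1.97 for *Hspa1a*, and *Hspb1* (Hsp27) had 2.63. The values of these 3 genes overlapped between mice. Of the 50-base words in the exons of *Hspa1b* and *Hspa1a*, which are near-identical copies, 62.3% and 60.3% also occur in another gene, so that their separate levels are uncertain. For *Hspa8* and *Hsp90aa1* the shares are 37.0% and 47.5%. Both genes also split by label letter, with median normalised read counts of 268 in A and 1484 in B for *Hspa8*. For *Hsp90aa1* the medians were 166 and 588. Their places in this order hold for the mean of all 12 mice and depend on the letter.

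**Figure D1:**
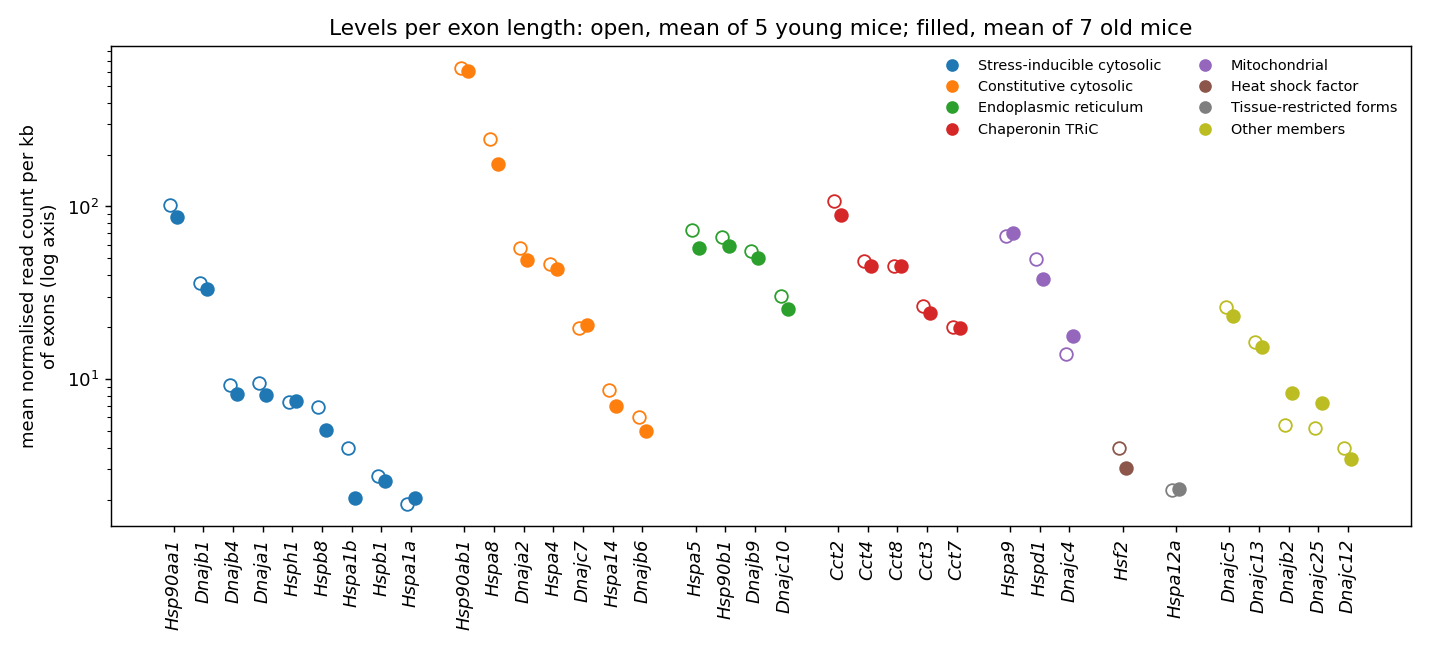
Mean normalised read count per kb of exons (log axis) for the named genes, by group, with open points for the mean of 5 young and filled points for the mean of 7 old mice. *Hsp90ab1* stands highest at 624 per kb over all mice, and the inducible Hsp70 genes *Hspa1b* and *Hspa1a* lie at 2.85 and 1.97.

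No heat shock or chaperone gene differed between young and old mice at an adjusted p under 0.05 (0 of 57, limma with Benjamini-Hochberg adjustment over 12354 genes, smallest adjusted p = 0.9997). Over all genes tested 13 were called, which is 0.105%. An unadjusted p under 0.05 was found for 1 of the 57 (1.75%), *Dnajb2*, which was higher in old mice, beside 3.95% of all genes in either direction and 1.96% higher in old mice. Tests on the recovered reads with edgeR's quasi-likelihood method and with DESeq2 called 0 of the 57 as well. They gave 1 and 2 genes at an unadjusted p under 0.05, beside 489 and 592 of all 12354 genes. The values of young and old mice overlapped in each of the 57 genes, whereas they did not in 0.461% of all genes. For 42 of the 57 the 95% confidence interval of the age difference lay within a 2-fold change in either direction. The median half-width of the 57 intervals was 0.51 on the log2 scale, without adjustment for the number of genes tested. Smaller differences were not detectable with these mice, and larger ones could also be missed at an adjusted p under 0.05. *Dnajb2*, at a log2 fold change of 0.66, had an adjusted p of 0.9997 (limma).

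The direction of the estimates was uneven although no gene passed the test. Of the 57 genes, 41 (71.9%) had a lower estimate in old mice, compared with 52.3% of all genes. The median log2 fold change was -0.14, beside -0.02 over all genes tested. When the letter was added as a covariate, the median was -0.09, beside -0.05 over all genes. The share with a lower estimate was then 66.7%, beside 57.3% of all genes. Without old mouse 5 the median was -0.04, beside -0.02 over all genes, and the shares were 66.7% and 53.5%. That mouse (letter A, 1.13 M reads) had the lowest value of the 12 in 23 of the 57 genes (40.4%) and in 21.2% of all genes tested. It also had the lowest summed markers of LSK-SLAM cells (1514, beside 2918 to 4927 in the young mice), and the part of this in the chaperone values was not tested. In bulk RNA, fewer expressing cells and less RNA per cell cannot be told apart.

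**Figure D2:**
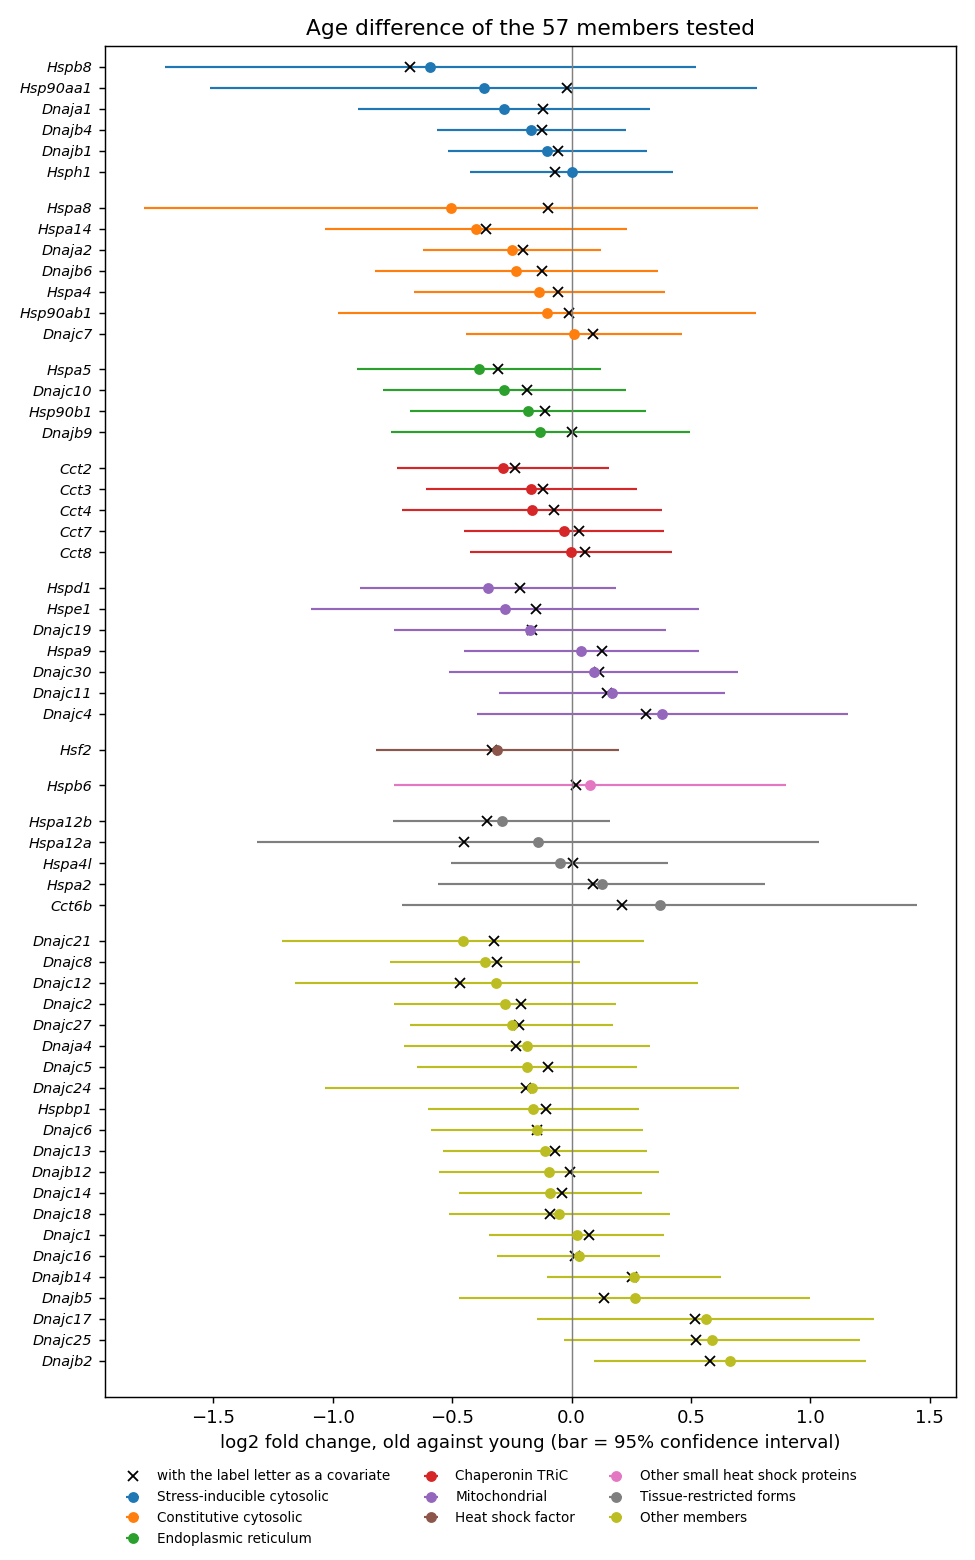
Age difference of each of the 57 genes tested, as log2 fold change of old against young mice with its 95% confidence interval (limma), grouped by role. Crosses give the estimate with the label letter as a covariate. Apart from *Dnajb2*, every interval includes 0, and the crosses of *Hspa8* and *Hsp90aa1* lie at -0.10 and -0.02, nearer to 0 than their points.

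Of the 9 stress-inducible cytosolic genes, 6 were tested, 0 were called and 0 had an unadjusted p under 0.05. Their median log2 fold change was -0.23. Of the 7 constitutive cytosolic genes, all tested, 0 were called, 0 had an unadjusted p under 0.05 and the median was also -0.23. With the letter as a covariate the medians were -0.10 for both groups. In both groups the ages overlapped for every gene tested.

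*Dnajb1* is induced by heat shock factor 1 and directs Hsp70 to its clients. The 5 young mice had 108, 74.0, 111, 153 and 130 normalised read counts, and the old mice had 75.0 to 127 with a median of 109. The ages overlapped over nearly their whole range, and the log2 fold change was -0.10 (95% confidence interval -0.52 to 0.31).

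*Hsph1* (Hsp110), the exchange factor whose 3-unit element is shown above, had 64.4, 57.7, 46.9, 49.4 and 48.2 in the young mice and 36.2 to 73.2 (median 50.4) in the old mice. Its log2 fold change was 0.00 (-0.42 to 0.42), the estimate nearest to 0 among the inducible genes. *Dnajb4*, a heat-inducible J-domain protein, had 87.4, 59.1, 89.7, 81.4 and 84.9 in young mice and 49.2 to 95.1 (median 69.1) in old mice. Old mouse 7 lay below all young mice for *Dnajb4* and old mouse 4 above all of them.

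*Hsp90aa1*, the inducible cytosolic Hsp90 (chr12:110690605-110702728, minus strand), split into 2 sets of mice within each age. The young mice had 177, 130, 707, 549 and 454 normalised read counts, and the old mice had 63.9 to 650 with a median of 191. The low values of both ages belonged to letter A and the high values to letter B. The age difference was -0.37 (-1.51 to 0.78) on the log2 scale and -0.02 with the letter as a covariate.

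*Dnaja1*, a J-domain protein that is raised by heat and used in unstressed cells, followed the same split. Its values were 55.4, 56.2, 96.9, 77.9 and 120 in the young mice and 42.6 to 122 (median 52.9) in the old mice, with an age difference of -0.28 (-0.90 to 0.33). *Hspb8*, a small heat shock protein that works with Bag3 in selective autophagy, was low at 14.3, 14.4, 14.5, 16.7 and 6.76 in young and 2.28 to 17.9 (median 6.33) in old mice. Of the inducible genes tested it had the estimate farthest from 0 (-0.59, interval -1.70 to 0.52).

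The 3 inducible genes below the filter rest on few reads. *Hspa1b* (chr17:34956436-34959238) had 279 recovered reads over the 12 mice, with normalised read counts of 6.22, 18.3, 9.42, 11.8 and 9.99 in the young mice and 1.17 to 13.5 (median 5.52) in the old mice. Old mice 1, 2, 3, 4 and 5 lay below every young mouse, and old mice 6 and 7 lay within their range. Without the filter its log2 fold change was -1.03, with an unadjusted p of 0.0847 (limma) and an adjusted p of 0.9999. *Hspa1a* had 180 reads and a difference of 0.10, and *Hspb1* had 88 reads and a difference of -0.15. In the shallowest library 3 reads correspond to 3.69 normalised read counts, so that differences between values of this size were not detectable in single mice. The near-identical copies *Hspa1a* and *Hspa1b* pointed in different directions.

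**Figure D3:**
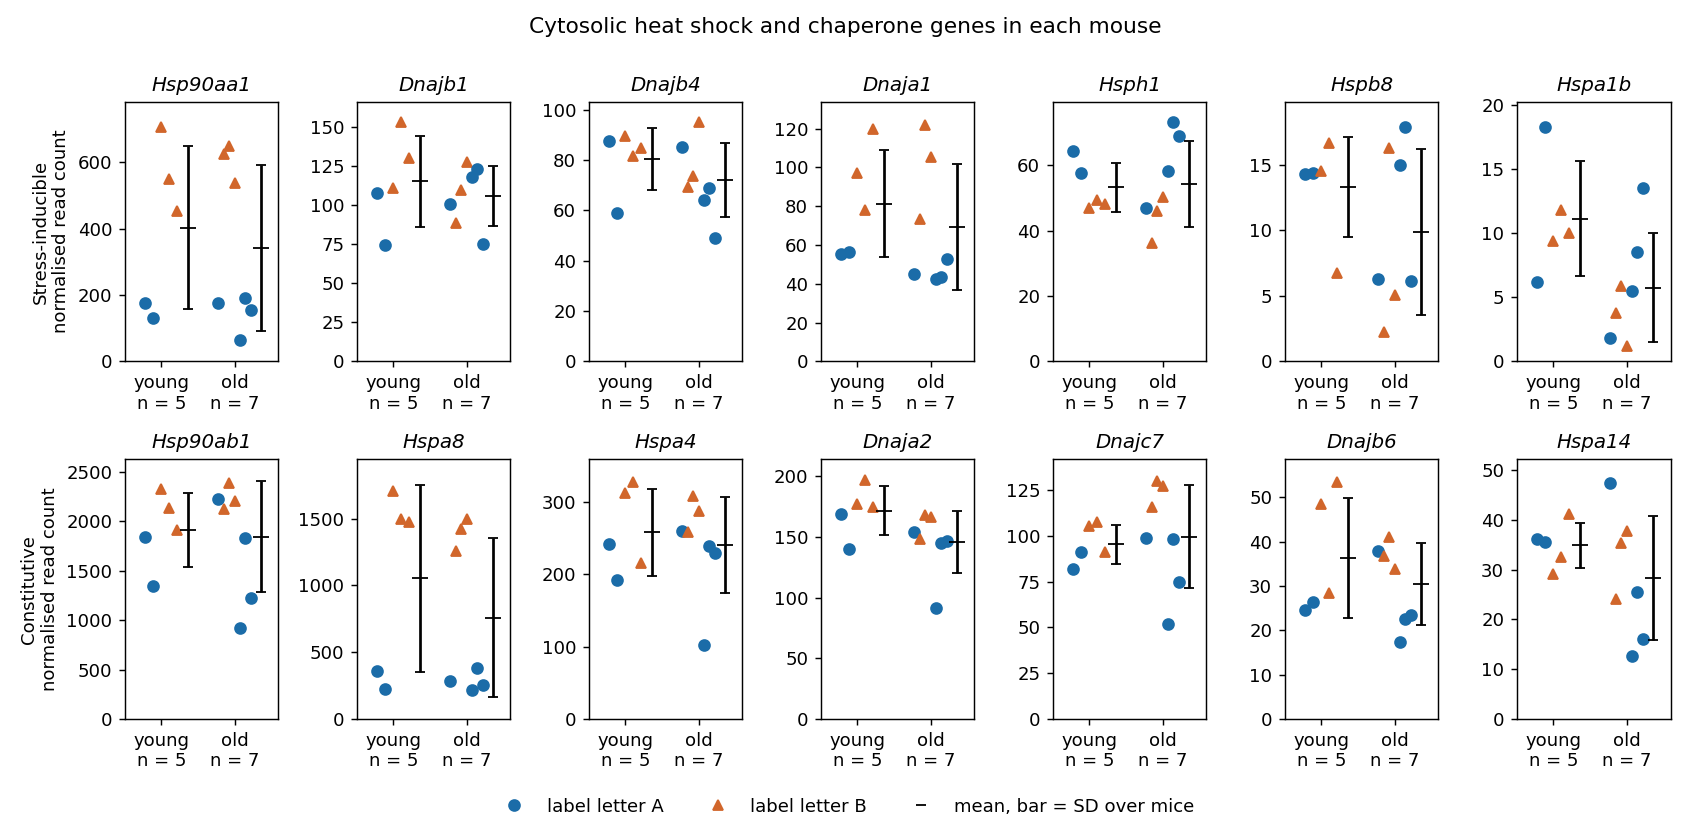
Normalised read count of inducible (upper row) and constitutive (lower row) cytosolic genes in each mouse, by age, with the label letter as symbol, and mean and SD over mice as black bars. *Hspa8* and *Hsp90aa1* separate by letter within each age (217 to 385 against 1257 to 1709 for *Hspa8*), whereas *Dnajb1* and *Hsph1* overlap between ages and between letters.

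Among the constitutive genes, *Hsp90ab1* (chr17:45567775-45573271) had 1843, 1341, 2329, 2133 and 1912 normalised read counts in the young mice and 916 to 2385 (median 2122) in the old mice. Its log2 fold change was -0.10 (-0.98 to 0.77). Old mice 5 and 7 lay below every young mouse, and the other old mice lay within or above the young range. *Hspa8* (chr9:40800984-40810087) had 358, 224, 1709, 1495 and 1474 in the young mice and 217 to 1494 (median 385) in the old mice. Its age difference was -0.51 (-1.79 to 0.78) and -0.10 with the letter as a covariate. As for *Hsp90aa1*, the low values of both ages belonged to letter A.

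*Hspa4*, a constitutive Hsp110-type exchange factor, had 242, 191, 313, 327 and 215 in young and 103 to 308 (median 258) in old mice, a difference of -0.14 (-0.66 to 0.39). *Dnaja2*, a constitutive J-domain protein, had 169, 140, 178, 197 and 175 in young and 91.6 to 168 (median 149) in old mice. Its log2 fold change of -0.25 had an exact permutation p of 0.104, the lowest among the constitutive genes. *Hspa14*, an Hsp70 relative bound to ribosomes, had the next lowest estimate after *Hspa8* at -0.40 (-1.03 to 0.23). *Dnajb6*, which suppresses protein aggregation, and *Dnajc7*, which links Hsp70 with Hsp90, had -0.23 (-0.82 to 0.36) and 0.01 (-0.44 to 0.46).

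The spread between mice of the same age and letter was described by the SD of log2 values around the 4 group means. Its median was 0.28 for the inducible and 0.37 for the constitutive genes, beside 0.35 for all 57 genes and 0.45 for all genes tested. The inducible genes ranged from 0.21 (*Hsph1*) to 0.82 (*Hspb8*, which is also the least abundant of those tested), and the constitutive genes from 0.23 (*Dnaja2*) to 0.54 (*Hspa14*). These SDs are a description and were not compared by a test.

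All 4 ER genes tested had lower estimates in old mice, with 0 called and 0 at an unadjusted p under 0.05 (median -0.23, or -0.15 with the letter as a covariate). *Hspa5* (BiP), which holds the sensors of the unfolded protein response inactive, had 227, 251, 376, 356 and 340 normalised read counts in the young mice. In the old mice it had 107 to 290 with a median of 257. The 3 young mice of letter B lay above every old mouse, and both young mice of letter A lay within the old range. The log2 fold change was -0.39 (-0.90 to 0.12), with an unadjusted p of 0.128 (limma) and an exact permutation p of 0.131.

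*Hsp90b1* (Grp94), whose promoter holds the same element, had 207, 208, 404, 276 and 249 in young and 119 to 287 (median 259) in old mice. Its difference was -0.18 (-0.68 to 0.31). Within a mouse the ratio of *Hspa5* to *Hsp90b1* lay between 0.931 and 1.36 in young and between 0.894 and 1.21 in old mice. *Dnajc10*, an ER reductase with a J domain, and *Dnajb9*, a partner of BiP, had differences of -0.28 (-0.79 to 0.23) and -0.13 (-0.76 to 0.49).

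The 5 TRiC subunits with a row were all tested, with 0 called and 0 at an unadjusted p under 0.05. Their estimates were -0.29 for *Cct2*, -0.17 for *Cct3*, -0.17 for *Cct4*, -0.03 for *Cct7* and -0.0022 for *Cct8*, with a median of -0.17. *Cct2* had 269, 208, 340, 296 and 261 in young and 131 to 292 (median 231) in old mice. Old mouse 5 was the lowest old mouse for each of the 5 subunits. Without it the median of the subunits was 0.03, and in the mice of letter B alone it was 0.01.

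The mitochondrial group had 7 genes tested, 0 called, 0 at an unadjusted p under 0.05 and a median of 0.04. *Hspa9* (mortalin), which pulls imported proteins into the matrix, had 277, 188, 329, 321 and 340 in young and 163 to 408 (median 327) in old mice, a difference of 0.04 (-0.45 to 0.53). *Hspd1* (Hsp60, chr1:55077835-55088243) forms the folding chamber of the matrix and had 86.5, 76.9, 198, 158 and 139 in young and 59.2 to 151 (median 95.9) in old mice. Its difference was -0.35 (-0.88 to 0.19). Its lid *Hspe1*, which shares the promoter region printed above, had a difference of -0.28 (-1.09 to 0.53) at a lower level of 8.14 to 33.2 over all mice. Exons of *Hspd1* and *Hspe1* overlap, and whether reads were counted by strand is not given in the sources used here. *Dnajc4*, a little-studied J-domain gene, had the highest estimate of the group at 0.38 (-0.40 to 1.16).

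*Hsf2*, a heat shock factor with roles in development and under proteasome stress, had 42.3, 52.9, 22.0, 45.5 and 28.2 in young and 23.1 to 34.9 (median 29.1) in old mice. In 3 young mice *Hsf2* exceeded every old mouse, and in 1 it lay below all of them. The log2 fold change was -0.31 (-0.82 to 0.20), with an exact permutation p of 0.160.

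*Dnajb2*, which passes clients of Hsp70 to the proteasome and is best known from neurons, was the gene with the lowest unadjusted p between the ages. It had 26.1, 36.1, 11.6, 18.1 and 23.2 normalised read counts in the young mice and 25.5 to 44.2 (median 35.7) in the old mice. All old mice except mouse 4 exceeded 4 of the 5 young mice. The log2 fold change was 0.66 ± 0.27 (SE), with an unadjusted p of 0.0253 and an adjusted p of 0.9997 (limma), and it was positive at all 28 alternative settings. The exact permutation p was 0.0202, and 0.646 after adjustment over the 32 named genes that were tested this way. Since *Dnajb2* was named for its low p in these same mice, neither value is separate support. At 7 of 29 alternative settings none of the genes tested had an unadjusted p under 0.05. Mice of letter A gave a difference of 0.28 and mice of letter B one of 0.84, where 2 against 4 and 3 against 3 mice cannot give an exact p below 0.0667 and 0.1. *Stub1*, a ubiquitin ligase that works with the same clients and does not belong to the 74, had the opposite sign (-0.51, unadjusted p = 0.0406, adjusted p = 0.9997, limma).

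*Dnajc25* came next, with 27.7, 41.8, 17.5, 10.4 and 20.0 in young and 24.0 to 40.8 (median 32.0) in old mice. Its difference was 0.59 (-0.03 to 1.21), but -0.11 in mice of letter A and 1.08 in mice of letter B. The most abundant of the remaining genes, the endosomal *Dnajc13* and the vesicle protein *Dnajc5*, differed by -0.11 (-0.54 to 0.32) and -0.19 (-0.65 to 0.28). For the difference of the age effect between the letters, 0 of 57 genes were called (limma, smallest adjusted p = 0.9998), 1 had an unadjusted p under 0.05 (*Dnajc25*, p = 0.0308), and edgeR also called 0. Over all 12354 genes 0.0162% were called in that test, and 424 had an unadjusted p under 0.05.

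Of 6 Hsp70 and TRiC forms known mainly from testis, heart, brain or endothelium, 5 were tested and 0 were called or had an unadjusted p under 0.05, with a median of -0.05. They ranged from -0.29 (*Hspa12b*, the endothelial form) to 0.37 (*Cct6b*, the testis form of a TRiC subunit). *Hspb6*, the other Hspb gene above the filter besides *Hspb8*, had a difference of 0.08 (-0.75 to 0.90). The 21 remaining genes, all but *Hspbp1* with a J domain, ranged from -0.45 (*Dnajc21*, which acts in ribosome maturation) to 0.66 (*Dnajb2*), with 7 estimates above 0 and 14 below it.

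Of the 17 genes below the filter, the means ranged from 2.17 to 9.61 normalised read counts and the recovered reads over all mice from 49 to 300. They include 6 of the 8 genes with an Hspb symbol, the testis form *Hspa1l*, and J-domain genes such as *Dnajb3*, *Dnajb7*, *Dnajb8* and *Dnajb13* that are known from testis and cilia. In 12 of the 17 every mouse had at least 1 read. Without the filter 0 of the 17 were called between the ages, and the lowest unadjusted p was that of *Hspa1b*.

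The question of the label letters is how far these genes differ between mice of 1 age. In a fit that also held age, 14 of the 57 genes were called between letter B and letter A (limma, adjusted p under 0.05), which is 24.6%, compared with 36.1% of all genes. Higher in B were 12 of the 57 (21.1%, beside 10.5% of all genes) and lower in B were 2 (3.51%, beside 25.6% of all genes). After rescaling by median ratios, which moved the median of all genes from -0.09 to 0.21, the split was 31 higher and 1 lower, beside 27.2% and 20.5% of all genes. After TMM scaling it was also 31 and 1, beside 29.7% and 19.5% of all genes. Relative to the median of all genes, the median of the 57 was higher in B by 0.36 with the deposited scaling, 0.36 with median ratios and 0.37 with TMM. With a minimum mean of 50, which keeps 34 of the genes, the median was 0.35 beside 0.30 for all genes, a difference of 0.05. In 5 of the 57 genes the letters did not overlap (8.77%, beside 10.5% of all genes), namely *Hspa8*, *Hsp90aa1*, *Dnaja1*, *Hspd1* and *Hspa12a*.

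*Hspa8* was 217 to 385 (median 268) in letter A and 1257 to 1709 (median 1484) in letter B, a log2 fold change of 2.37 ± 0.21 (SE, adjusted p = 2.99e-09, limma). *Hsp90aa1* was 63.9 to 191 (median 166) in letter A and 454 to 707 (median 588) in letter B, a change of 2.04 ± 0.22 (adjusted p = 1.55e-07). *Dnaja1* was 42.6 to 56.2 in letter A and 73.4 to 122 in letter B, a change of 0.96 ± 0.19 (adjusted p = 6.87e-04). The calls of *Hspa8* and *Hsp90aa1* held at all 27 alternative settings, and that of *Dnaja1* at all but the young mice alone.

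For their relatives *Hsp90ab1* and *Hspa4* the test was not passed. *Hsp90ab1* had a log2 fold change of 0.54 ± 0.32 (adjusted p = 0.183) and *Hspa4* one of 0.47 ± 0.21 (adjusted p = 0.0738, both limma). Within a mouse the ratio of *Hsp90aa1* to *Hsp90ab1* was 0.0698 to 0.128 in letter A and 0.238 to 0.304 in letter B. *Dnajb1* (0.26 ± 0.19, adjusted p = 0.272) and *Hsph1* (-0.41 ± 0.19, adjusted p = 0.0898) did not pass the test, and *Hsph1* had its higher values in letter A. Of the 6 inducible genes tested, 2 were called between the letters, and of the 7 constitutive genes 3 were called. Over all genes tested the share called was 36.1%, so that these small counts show nothing particular to either group.

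In the other groups, *Hspd1* (0.76 ± 0.18, adjusted p = 0.00297) and *Hspa9* (0.52 ± 0.19, adjusted p = 0.0360) were higher in B among the mitochondrial genes. Of the ER genes, *Dnajb9* (0.77 ± 0.22, adjusted p = 0.00849) and *Dnajc10* were higher in B. Of the TRiC subunits 0 of 5 were called, beside 36.1% of all genes. *Dnajb6*, *Dnajc7*, *Dnajc5*, *Dnajb12* and *Dnajc21* made up the rest of those higher in B, with changes of 0.48 to 0.76. The calls of these 5 genes and of *Hspa9* and *Dnajc10* were lost at 10 to 15 of 26 or 27 alternative settings. *Hspa12a*, a distant Hsp70 relative, fell from 17.5 to 59.2 in letter A to 3.69 to 13.5 in letter B (-1.80 ± 0.35, adjusted p = 6.15e-04). *Dnajc12*, which assists enzymes that hydroxylate aromatic amino acids, was the other gene lower in B (-0.88 ± 0.34, adjusted p = 0.0451), and its call was lost at 18 of 26 alternative settings.

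*Hspa8*, *Hsp90aa1* and *Hspd1*, which were higher in B, carry much sequence that also occurs elsewhere in the genome, where processed copies of their transcripts lie. Of the 50-base words in exons (GENCODE vM21), 37.0% of those of *Hspa8*, 47.5% of *Hsp90aa1* and 39.7% of *Hspd1* were also found in a gene that does not overlap them, compared with 3.44% for *Hsp90ab1*, 0.412% for *Dnajb1* and 0 for *Hsph1* and *Hspa4*. In the coding sequence alone the shares were 90.7%, 85.4% and 63.7% for the 3 genes. The following words, each written on the strand of its gene, show what a read of this length would match. Each occurs unchanged in annotated genes elsewhere:
*Hspa8*, coding bases 1746 to 1795: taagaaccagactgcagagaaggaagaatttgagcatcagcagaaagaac
*Hsp90aa1*, coding bases 1042 to 1091: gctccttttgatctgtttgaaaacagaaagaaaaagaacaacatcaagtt
*Hspd1*, coding bases 485 to 534: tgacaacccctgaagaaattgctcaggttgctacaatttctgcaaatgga

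The word of *Hspa8* was found in 10 other annotated genes, most of them processed pseudogenes, among them *Gm15459* on chromosome 5 (chr5:5781615-5783555) and *Gm8337* on chromosome 1. The word of *Hsp90aa1* was found in 3 others, such as *Gm12346* on chromosome 11, and that of *Hspd1* in *Hspd1-ps3* and *Hspd1-ps4*. A read with such a word cannot be placed by sequence alone.

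Across all genes tested, the median difference between the letters was -0.17 for the 7149 genes without a shared word. It was -0.06 for the 4167 genes with up to 5% and 0.26 for the 726 genes with over 5% to 20%. For the 243 genes with over 20% to 50% it was 0.76, and for the 66 genes above 50% it was 0.86. Called higher in B were 7.92%, 9.10%, 27.8%, 50.2% and 48.5% of these genes, in the same order. Among the 57, the 30 genes without a shared word had a median of 0.21 and the 18 genes with up to 5% had 0.27. The 6 genes with over 5% to 20% had 0.69, and the 3 genes above that had 2.04. Spearman's rho between the share of words and the letter difference was 0.40 over the 57 genes and 0.14 over 12351 genes, as a description across genes measured in the same 12 libraries. The shared words are a property of the annotation, and their part in the letter difference was not tested. *Hspa12a*, with a change of -1.80, had no shared word. *Hspd1*, with a larger share than *Hspa8*, had a difference of 0.76, and *Dnajc17*, with 13.9%, had one of -0.26.

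**Figure D4:**
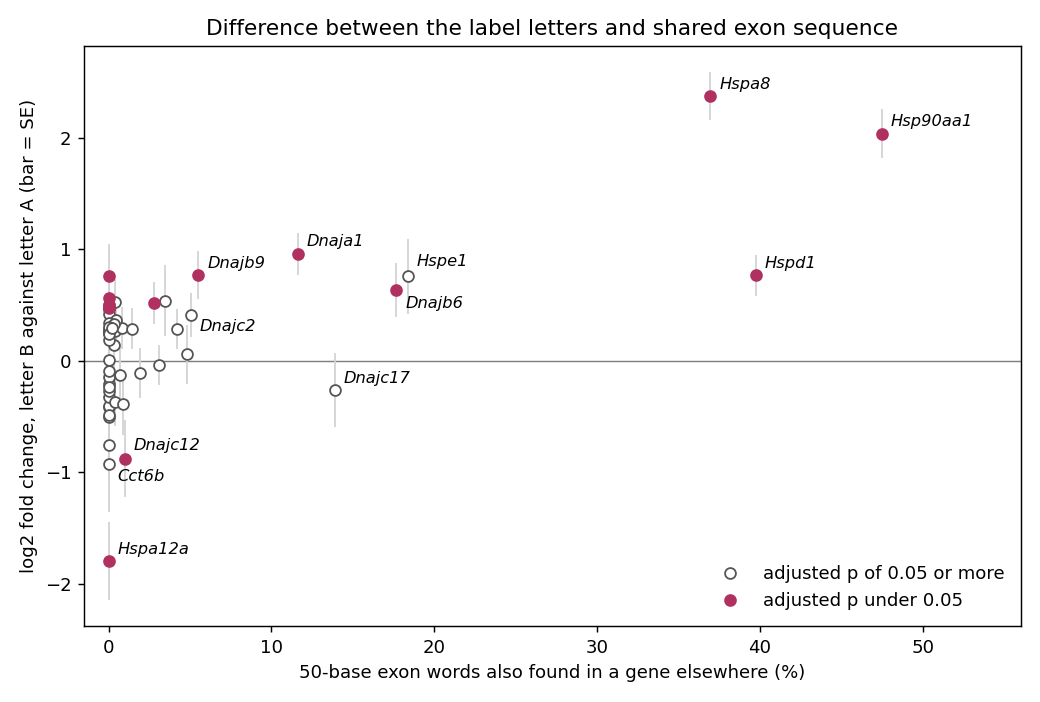
Log2 fold change between the label letters (B against A, with SE) of the 57 genes tested against the share of their 50-base exon words that also occur in a gene elsewhere. Filled points passed an adjusted p of 0.05 (limma). *Hspa8* and *Hsp90aa1* stand apart with 37.0% and 47.5% of words and differences of 2.37 and 2.04, and *Hspd1* with 39.7% lies at 0.76.

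Markers of cell types also differed between the letters. The summed LSK-SLAM markers had a median of 3350 in letter A and 4891 in letter B, with 4 markers called. The sums of granulocyte and monocyte markers (879 in A, 401 in B), erythroid markers (253 and 183), B cell markers (149 and 69.6) and T cell markers (85.8 and 31.1) had lower medians in B, with 3, 3, 3 and 1 markers called. Of the 12 immediate early genes tested 4 were called, with *Jund*, *Junb* and *Ier2* higher and *Egr2* lower in B. Over all genes tested 36.1% were called between the letters. The part of the markers and of the immediate early genes in the letter difference of the chaperone genes was not tested.

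Chaperone partners outside the 74 genes were taken from a fixed list. Of 37 co-chaperones listed, 31 were tested and 0 were called between the ages (median -0.13). *Stub1* was the single one with an unadjusted p under 0.05, beside 3.95% of all genes. Between the letters 3 of the 31 were called, beside 36.1% of all genes in either direction and 10.5% higher in B. All 3 were higher in B: *Ptges3* (p23, an Hsp90 partner) by 1.75, *Tomm34* by 0.66 and *Bag6* by 0.64. *Bag3*, an Hsf1 target that is used as a marker of heat stress, had a mean of 22.1 in young and 29.2 in old mice, with 14.6 to 47.8 over all 12 mice, a log2 fold change of 0.29 with an unadjusted p of 0.366 (limma).

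Of the immediate early genes, which rise when cells are stressed during isolation, 12 were tested and 0 were called between the ages. Their summed level was 1431 to 3745 in young and 1166 to 4158 in old mice, with the highest sum in old mouse 6. In that mouse *Dnajb1* was 123, *Hsph1* 73.2 and *Hspa1b* 8.50, of which *Hsph1* was the highest of the 12 mice. The same mouse had the highest summed markers of granulocytes and monocytes (4369, beside 333 to 1021 in the young mice) and of erythroid cells (810, beside 131 to 297 in the young mice). The sums of B and T cell markers were highest in another mouse, old mouse 5, at 174 and 170. In the young mice they were 63.6 to 149 and 26.3 to 102. The part of these cells and of isolation stress in the chaperone values was not tested.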

How the data were processed

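LSK-SLAM cells of 5 young and 7 old mice were sorted, and RNA of 15000 cells per library was depleted of ribosomal RNA, of which 300 pg entered a TotalScript library for sequencing on a HiSeq. The submitters' processing notes name the build mm10 and the tools FastQC 0.11.8, STAR 2.5.4b and edgeR 3.24.3, and the counter, the annotation and the use of strand are not given in the sources used here. The authors deposited 1 table of signal values (normalised read counts), that is, the reads of a gene over the library size times a scaling factor, with 1 column per mouse for the 24 labelled samples. In every column 100% of the values were whole multiples of 1 step (tolerance 0.01), from which whole reads were recovered. A second deposited table holds the authors' own comparison of the ages and was not used.

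Log2 (normalised read count + 1) was tested with limma 3.58.1 (trend, R 4.3.3) for 12354 genes with a mean of at least 10, and p-values were adjusted by Benjamini-Hochberg over all of them. The design without a covariate tested age, and age with letter tested the letter. Fold changes are on this scale and understate those of low genes. Tests with edgeR 4.0.16 and DESeq2 1.42.0 on recovered reads were alternatives, since the table holds normalised values. Named genes also had two-sided exact permutation tests over 792 splits of the mice. Nothing in the labels ties the mice to litters or days, and the p-values measure the spread between these mice. Exon words and lengths came from GENCODE vM21 (GRCm38), and promoters from RefSeq. Procedures were tested on simulated data.

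Named genes were the members of the inducible, constitutive, ER, TRiC and heat shock factor lists, the 2 most abundant genes and the 2 with the lowest p in the mitochondrial list and among the others, and the 3 most changed in each direction between the letters. Other genes were named after their values were seen. The genes and lists were chosen with earlier results of these data known.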

Additional observations from a re-analysis of the deposited data

Results flagged for a closer look

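Within an age, 12 of 64 groups held a mouse that stood far from the others (its gap to the nearest mouse over the range of the group exceeded Dixon's 95% critical value), where chance at 1 in 20 gives 3.2. Old mouse 5 accounted for 7 of them. It was the lowest old mouse for *Hspa5* (107 normalised read counts, next 247), *Hsp90b1* (119, next 223), *Hspa4* (103, next 229), *Dnaja2* (91.6, next 145), *Cct3* (76.6, next 155) and *Cct7* (75.8, next 131), and the highest for *Hspa12a* (59.2, next 26.2). These genes share 1 library of 1.13 M reads (1 M is 1e+06) and are not independent flags.

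Young mouse 2 was the lowest young mouse for *Cct4* (136, next 207), *Cct8* (88.0, next 139) and *Dnajb4* (59.1, next 81.4), and the highest for *Dnajc4* (36.1, next 14.4). Young mouse 5 was the lowest for *Hspb8* (6.76, next 14.3).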

How the results depend on the processing

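Between the ages, 0 of the genes were called at all 29 alternatives, and the difference of the age effect between the letters gave 0 calls at all 16. The medians of the inducible (-0.34 to -0.09), constitutive (-0.32 to -0.09) and ER genes (-0.37 to -0.09) and of all 57 genes (-0.22 to -0.04) stayed below 0, whereas the TRiC median ran from -0.25 to 0.03. The mitochondrial median of 0.04 was -0.15 with a minimum mean of 50, which leaves fewer genes. The share of the 57 genes with a lower estimate in old mice was 57.9% in letter B alone (54.7% of all genes) and 80.7% after TMM scaling (61.6% of all genes). Of the 57 genes, 1 had an unadjusted p under 0.05 in the test reported, beside 488 of all 12354 genes. For the alternatives the number over all genes is given in brackets. There were 0 with a minimum mean of 50 (272 of 4799) and in letter A alone (318). As alternatives chosen after seeing the data, reads thinned to the shallowest mouse (481) and replicates 1 to 5 without a block (411) also gave 0. There were 2 without the variance trend (463) and with DESeq2 (592), and 4 in letter B alone (995). When 1 mouse was left out there were 0 to 3. They were 0 without young mouse 3 (378) or 4 (358), 3 without young mouse 2 (672) and 2 without old mouse 1 (437). Between the letters, the 14 calls (36.1% of all genes were called) became 6 of 34 with a minimum mean of 50 (19.6% of all genes). They became 32 with median ratios (47.7%), 32 with TMM (49.1%) and 8 with edgeR (30.8%). In old mice alone 4 were called (22.3%), and in young mice alone 4 (3.62%). When 1 mouse was left out the calls numbered 6 to 16 (23.8% to 40.5% of all genes). They were 6 without young mouse 2 or old mouse 2, 3 or 4, 7 without young mouse 4 or old mouse 7, and 8 without young mouse 3. With reads thinned to the shallowest mouse 30.8% of all genes were called, and the calls of *Hspa8* and *Hsp90aa1* held. The causes were not tested. With a replicate block over replicates 1 to 5, 0 of the 57 had an unadjusted p under 0.05 between the ages, beside 397 of 12354 genes. In that fit 17 were called between the letters, beside 24.1% of all genes. Deviations from the age means of same-numbered mice correlated from -0.56 to 0.61. These deviations still hold the letter, and young mouse 2 and old mouse 5, both of letter A, correlated at 0.71. Whether same-numbered mice are paired can therefore not be decided from them. In the shallowest library 3 reads correspond to 3.69 normalised read counts, which limits the genes below the filter.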
